A study of Sus scrofa with 12 samples.

Results

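The proteoglycan genes described here are the 8 genes DCN, LUM, BGN, VCAN, FMOD, ASPN, OGN and PRELP, found by their exact names among the 20674 genes of the deposited expression table. They were read in the endometrium of Landrace × Yorkshire sows (Sus scrofa), in 12 poly(A) RNA libraries, 3 for each of 4 diets. L − N sows ate a diet with 3.73% crude fiber and no added N-carbamylglutamate (NCG), an analog of N-acetylglutamate that activates arginine synthesis. L + N sows ate the same diet with 0.05% NCG, H − N sows a diet with 7.46% crude fiber and no NCG, and H + N sows the 7.46% diet with 0.05% NCG. The diets were fed for 114 days of gestation, and the study asked how fiber and NCG together act on the uterus. Age of the sows is not given in the sources used here. Each library is named by its group and replicate number, and the sources used here give no link between sows of the same number. The libraries held between 14369781 and 19309724 counts each.

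Small leucine-rich proteoglycans are secreted proteins whose leucine-rich repeats bind collagen fibrils and set how thick and how evenly spaced the fibrils grow. Several of them also hold growth factors such as transforming growth factor beta in the matrix or act on receptors at the cell surface. In the endometrium they are products mainly of stromal fibroblasts, and the stroma is remodeled through each cycle and pregnancy. Among the 8 genes, DCN (decorin), BGN (biglycan) and ASPN (asporin) belong to class I of the family, LUM (lumican), FMOD (fibromodulin) and PRELP to class II, and OGN (osteoglycin, or mimecan) to class III. VCAN encodes versican, a large hyaluronan-binding proteoglycan with many chondroitin sulfate chains and no leucine-rich repeats. The name of the family therefore fits 7 of the 8 genes, and VCAN is described apart from them.

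On the pig assembly Sscrofa11.1, 6 of the 8 genes lay in 3 groups of neighbors. DCN (chromosome 5, 91678601 to 91713925, plus strand) was followed after 34945 bases by LUM (91748871 to 91756381, plus strand), and KERA, the keratocan gene of the same family, came 37935 bases after LUM. FMOD (chromosome 9, 64062995 to 64073853, minus strand) and PRELP (64190978 to 64207008, plus strand) were 117124 bases apart. OGN (chromosome 3, 42116521 to 42135940) and ASPN (42165553 to 42192902) lay on the minus strand with OMD between them and ECM2 beyond ASPN. VCAN (chromosome 2, 91682177 to 91811674, plus strand) was 45820 bases from HAPLN1, which encodes a link protein that fastens versican to hyaluronan. BGN lay on chromosome X (124282048 to 124295450, plus strand). OGN and ASPN overlap CENPP on the other strand. The paper describes the libraries as strand-specific, but whether the counting used the strand is not given in the sources used here, so it is not known whether the counts keep these genes and CENPP apart. CENPP itself was low, between 2.01 and 5.27 CPM. In L − N replicates 2 and 3, however, it was at 3.01 and 2.82 CPM, close to OGN there at 3.07 and 2.89 CPM. Whether reads of CENPP entered these OGN values was not tested.

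The order of the genes was read per length, as FPKM (fragments scaled by gene length and by library total). DCN was the highest, with 1974 ± 383 FPKM (SD, n = 12) and a place between 8 and 34 among all genes of a library. LUM came next at 1043 ± 189 FPKM. DCN exceeded LUM, and LUM exceeded BGN, in 12 of 12 libraries, and neither pair of ranges overlapped. Below them the median level was 74.2 FPKM for BGN, 51.7 for ASPN, 46.1 for FMOD, 25.6 for PRELP, 20.6 for VCAN and 8.46 for OGN. BGN exceeded ASPN in 10 of 12 libraries, FMOD exceeded PRELP in 11, VCAN exceeded OGN in 9 and PRELP exceeded VCAN in 8, while ASPN exceeded FMOD in 5, so that each gene below LUM overlapped the next in range. BGN and OGN, the ends of this order, did not overlap, with at least 60.8 FPKM for BGN and at most 29.4 for OGN. The 8 genes together took 0.449% to 0.777% of the counts of a library, and DCN and LUM made up 56.2% to 90.3% of that sum in CPM (counts scaled by library size with TMM). The lowest of these shares, in H + N replicate 3 and H − N replicate 3, went with high VCAN.

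Some libraries stood apart from the others of their group, and some of the results below are also given without them. L − N replicate 1 held the highest level of BGN, FMOD, PRELP and DCN among the 12 libraries. It also stood apart in smooth muscle markers. The 9 markers, all with counts and led by MYH11, summed to 5758, 1824 and 2290.2 CPM in L − N, 1340.4, 1457 and 1239 in L + N, 994, 1794 and 1782 in H − N and 1702, 1766 and 1747 in H + N. The sum in L − N replicate 1 was above every other library, and the other 11 libraries ran from 994 to 2290.2 CPM. H − N replicate 3 and H + N replicate 3 stood apart in VCAN, at 1502 and 2829 CPM, against at most 326 CPM in the other 10 libraries. L − N replicates 2 and 3 stood apart in macrophage markers, whose sum was 3428 and 3557 CPM, against at most 1613 CPM elsewhere. In bulk tissue, fewer cells of a type and less RNA per cell cannot be told apart, and this holds for each level given here.

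**Figure D1:**
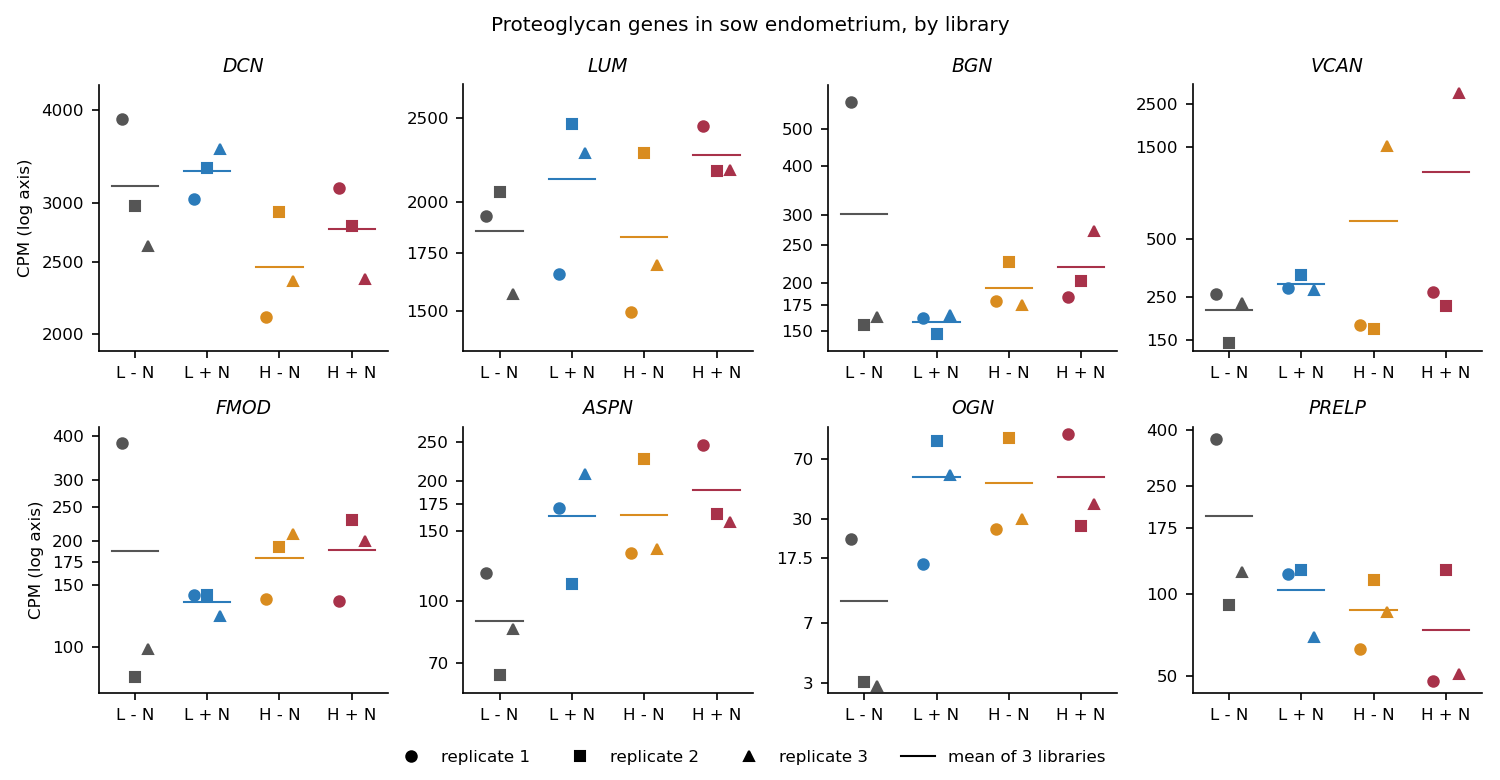
CPM on a log axis for each of the 8 genes, with a point for each library, grouped by diet, and a line at the mean of the 3 libraries. OGN sits at 3.07 and 2.89 CPM in L − N replicates 2 and 3, while L − N replicate 1 is the highest point for BGN, FMOD and PRELP.

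The libraries were compared with an edgeR quasi-likelihood fit over all 15351 genes that passed the filter on low counts, and all 8 genes passed it. Here a gene was called at an adjusted p (Benjamini-Hochberg over all genes tested) under 0.05 with an absolute log2 fold change above 1. L − N was compared with each other group, and these comparisons share the L − N libraries. In edgeR, 0 of the 8 genes were called in L + N versus L − N, where 3.99% of all genes were. The count was 0 of 8 in H − N versus L − N, with 2.91% of all genes called, and 0 of 8 in H + N versus L − N, with 3.58%. A count of 0 of 8 is near these shares and is no result about the 8 genes. At an unadjusted p under 0.05 the counts were 3, 3 and 4 of 8 in edgeR, beside 27.8%, 24.4% and 27.5% of all genes, and without the threshold on fold 0 of 8 passed in each. DESeq2 gave no p for VCAN in any of the 8 comparisons, so its counts are of 7 genes. It called 0 of 7 in L + N versus L − N, 0 in H − N versus L − N, and 2 (ASPN and PRELP) in H + N versus L − N. These stand beside 4.91%, 5.11% and 5.44% of all genes. The shares over all genes moved with single libraries. In H + N versus L − N, 549 genes were called with all libraries, 1 when H + N replicate 1 was left out, 4 when L − N replicate 3 was, and 948 when L − N replicate 1 was.

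OGN, a class III member that binds collagen fibrils, had the widest spread over the 12 libraries, with the highest 34.5 times the lowest. It was at 22.7, 3.07 and 2.89 CPM in L − N, 16.0, 90.0 and 56.3 in L + N, 26.3, 94.0 and 30.3 in H − N and 99.5, 27.5 and 37.2 in H + N. L − N replicates 2 and 3 were the lowest libraries, far below the others, while L − N replicate 1 lay above L + N replicate 1 and below the remaining libraries. The L − N libraries did not overlap those of H − N or H + N. The log2 fold change versus L − N was 2.50 (SE 0.92, adjusted p = 0.107) in L + N, 2.39 (SE 0.91, adjusted p = 0.14) in H − N and 2.51 (SE 0.92, adjusted p = 0.105) in H + N, all by edgeR. None of these passed the threshold with 12 libraries, and each interval was wide, as in H + N with 0.50 to 4.53. With L − N replicate 1 left out, the edgeR values were 4.18 (SE 0.95, adjusted p = 0.021) in L + N, 4.07 (SE 0.95, adjusted p = 0.0193) in H − N and 4.19 (SE 0.95, adjusted p = 0.022) in H + N, and OGN was called in each. These calls rest on L − N replicates 2 and 3, which also stood apart in macrophage markers, as given below. Over all alternatives of that comparison the adjusted p in H + N ran from 0.022 to 0.308 (edgeR or DESeq2), and the log2 fold change with a library left out from 1.72 to 4.19.

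ASPN, a class I member that binds collagen and transforming growth factor beta and lacks the serine to which glycosaminoglycan chains are usually attached, came nearest to a call. It was at 117, 65.3 and 85.0 CPM in L − N, 171, 110.4 and 207 in L + N, 132, 227 and 135 in H − N and 246, 165 and 158 in H + N. The L − N libraries were among the lowest, and only L + N replicate 2 fell within their range. The groups did not overlap in H − N or H + N versus L − N. The mean was 89.3 ± 26.3 CPM in L − N (SD, n = 3) and 189.6 ± 48.9 CPM in H + N. In edgeR the log2 fold change of H + N versus L − N was 1.09 (SE 0.31, adjusted p = 0.0522), just short of the threshold on p, and 0.88 (SE 0.31, adjusted p = 0.111) in H − N and 0.87 (SE 0.30, adjusted p = 0.0952) in L + N. DESeq2 called ASPN in H + N versus L − N with a log2 fold change of 1.07 (adjusted p = 0.00914). In edgeR it was called there without L − N replicate 1, at 1.33 (SE 0.33, adjusted p = 0.0301), and without H − N replicate 2, at 1.09 (SE 0.28, adjusted p = 0.0478), a library of neither group that enters through the shared estimate of the spread. Its adjusted p over all alternatives of that comparison, by edgeR or DESeq2, ran from 0.00914 to 0.172. It was also called in H − N versus L − N without L − N replicate 1, at 1.13 (SE 0.33, adjusted p = 0.0473) in edgeR.

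OMD and ECM2, the neighbors of OGN and ASPN on chromosome 3, followed them only in part. In its main fit (12 libraries, TMM scaling) edgeR called neither in any of the 8 comparisons. OMD (osteomodulin), between them, was at 4.58, 1.63 and 2.89 CPM in L − N, 3.49, 11.4 and 6.74 in L + N, 3.32, 6.59 and 5.10 in H − N and 9.23, 6.68 and 9.44 in H + N. ECM2, a matrix protein gene beyond ASPN, was at 136, 62.4 and 81.9 CPM in L − N, 151, 319 and 223 in L + N, 81.1, 189.9 and 70.6 in H − N and 197, 161 and 143 in H + N. OGN, OMD, ASPN and ECM2 each had their lowest or next to lowest value in L − N replicate 2, but only OGN and ASPN kept all of L − N below H − N. ECM2 in H − N replicates 1 and 3 lay inside the L − N range, and OMD in L + N replicate 1 and H − N replicate 1 lay below L − N replicate 1. The log2 fold change of H + N versus L − N was 1.48 (SE 0.47, adjusted p = 0.0717) for OMD and 0.84 (SE 0.40, adjusted p = 0.206) for ECM2 in edgeR. With L − N replicate 1 left out, edgeR called OMD there and ECM2 in L + N versus L − N and for NCG. With all libraries DESeq2 called OMD in H + N versus L − N, at 1.46 (adjusted p = 0.0202), and ECM2 in L + N versus L − N, at 1.29 (adjusted p = 0.0142).

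**Figure D2:**
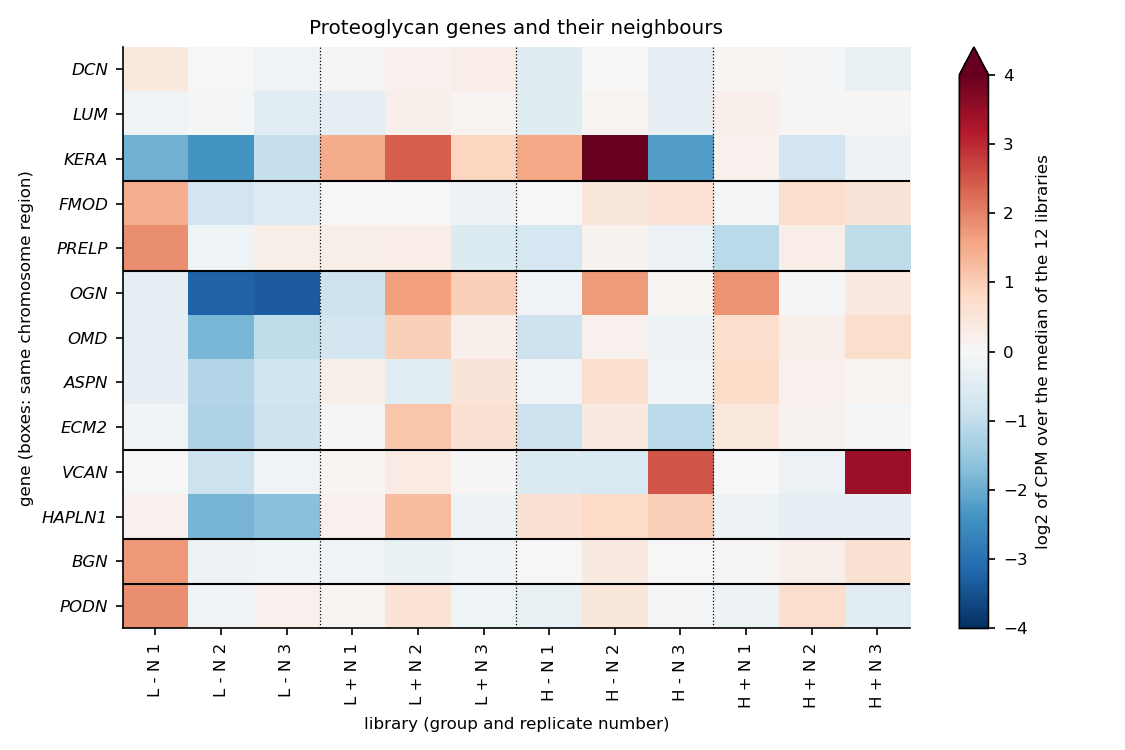
Each cell is the log2 of a gene's CPM over its median across the 12 libraries, with libraries across, genes down and solid lines between chromosome regions (BGN and PODN stand alone). OGN, OMD, ASPN and ECM2 are low in L − N replicate 2, VCAN is high in H − N replicate 3 and H + N replicate 3 without HAPLN1 beside it in the latter, and KERA in H − N replicate 2, at 485 CPM, lies past the end of the color scale.

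BGN, FMOD and PRELP shared one high library. Biglycan is a class I member with chondroitin or dermatan sulfate chains that also acts on Toll-like receptors. BGN was at 586, 155 and 164 CPM in L − N, 162, 148 and 165 in L + N, 179, 226 and 175 in H − N and 184, 203 and 272 in H + N. L − N replicate 1 was far above every other library, and the other 11 libraries lay between 148 and 272 CPM. The edgeR log2 fold change of L + N versus L − N was −0.93 (SE 0.42, adjusted p = 0.176), and −0.01 (adjusted p = 0.972) without L − N replicate 1. The sign turned with that library in H + N versus L − N, from −0.46 (SE 0.42, adjusted p = 0.512) to 0.46 (SE 0.18, adjusted p = 0.11) in edgeR. H + N and L + N did not overlap in BGN, with means of 219 ± 46.2 and 158 ± 9.16 CPM (SD, n = 3) and an edgeR log2 fold change of 0.47 (SE 0.42, adjusted p = 0.93).

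Fibromodulin, a class II member with keratan sulfate chains, governs fibril thickness together with lumican. FMOD was at 382, 82.0 and 98.5 CPM in L − N, 140.3, 140.4 and 122 in L + N, 137, 193 and 209 in H − N and 135, 231 and 201 in H + N. L − N held both the highest library and the lowest, with replicates 2 and 3 below all others. With 12 libraries FMOD was near 0 in H + N versus L − N, at 0.01 (SE 0.47, adjusted p = 0.992) in edgeR. Without L − N replicate 1 it was 1.06 (SE 0.24, adjusted p = 0.0208), past both thresholds in edgeR, and in H − N versus L − N 0.996 (adjusted p = 0.0212), past the threshold on p and short of that on fold. PRELP encodes a basic class II protein that anchors basement membranes to the connective tissue beneath. It was at 371, 90.9 and 121 CPM in L − N, 119, 122 and 69.7 in L + N, 62.7, 113 and 86.0 in H − N and 47.9, 123 and 50.6 in H + N. L − N replicate 1 was again the highest, and the other libraries of the 4 groups overlapped. PRELP in H + N versus L − N was −1.39 (SE 0.53, adjusted p = 0.115) in edgeR, and DESeq2 called it at −1.42 (adjusted p = 0.0344). Without L − N replicate 1 the edgeR value was −0.52 (SE 0.41, adjusted p = 0.433). Over all alternatives its adjusted p, by edgeR or DESeq2, ran from 0.0344 to 0.667.

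**Figure D3:**
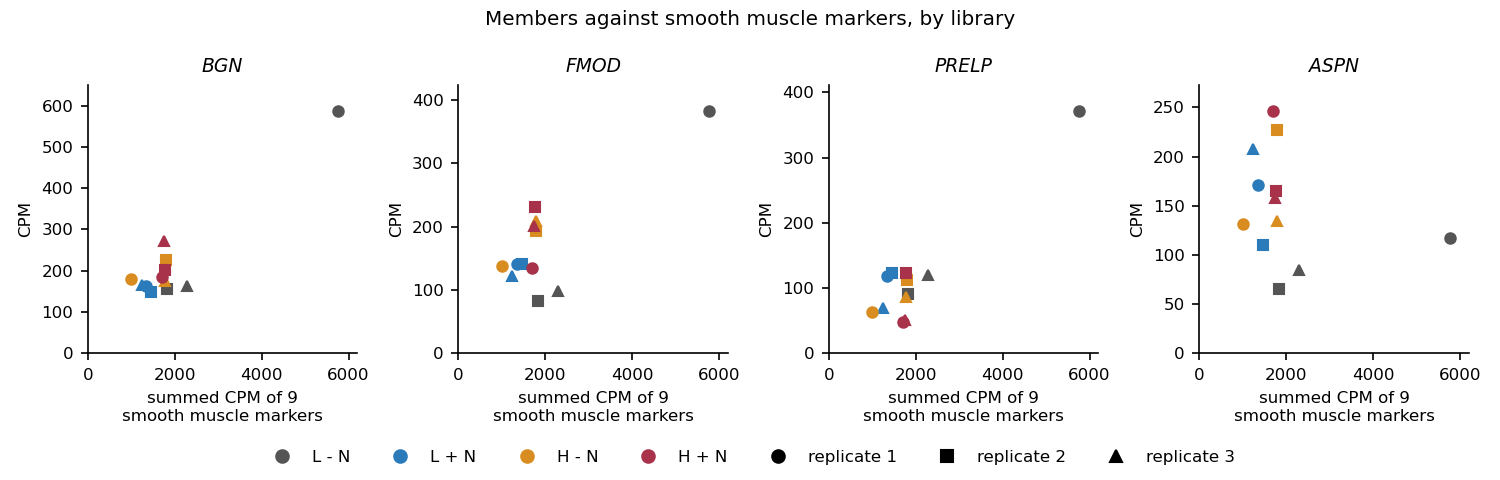
CPM of BGN, FMOD, PRELP and ASPN against the summed CPM of 9 smooth muscle markers, with a point for each of the 12 libraries, colored by diet. L − N replicate 1, at a sum of 5758 CPM, is the highest point for BGN, FMOD and PRELP and lies within the range of the others for ASPN.

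The high BGN, FMOD and PRELP of L − N replicate 1 went with the high smooth muscle sum of that library, and the part of smooth muscle in these levels was not tested. Of the 9 markers, 0 were higher and 9 lower in each other group than in L − N, with medians on the log2 scale of −1.50, −1.06 and −1.09 for L + N, H − N and H + N, beside −0.02, 0.03 and 0.02 over all genes. The medians moved toward 0 without L − N replicate 1, with 1, 3 and 5 of 9 markers higher and values of −0.36, −0.18 and 0.04. TAGLN and ACTA2 were called lower in L + N versus L − N by edgeR. Neither was called without L − N replicate 1 or any 1 library of L + N, and ACTA2 was also not called without L − N replicate 3. DESeq2 made 12 calls in this list over the 8 comparisons, where edgeR made these 2. With L − N replicate 1 left out, the calls among the 8 genes were 1 (OGN) in L + N versus L − N, with 5.85% of all genes called. There were 2 (OGN and ASPN) in H − N versus L − N, with 7.19% of all genes, and 3 (OGN, ASPN and FMOD) in H + N versus L − N, with 6.09%. This fit leaves 2 libraries in L − N.

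**Figure D4:**
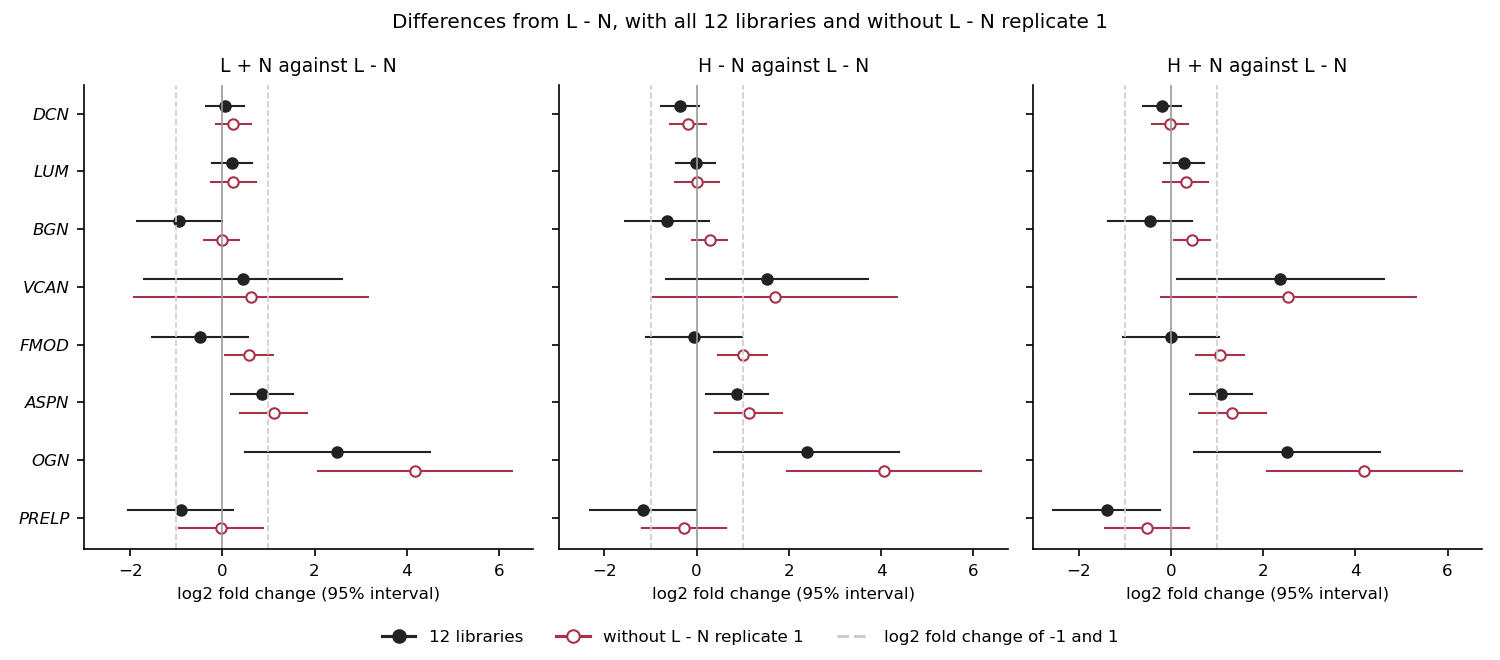
Log2 fold change versus L − N for each gene, with 95% intervals, from all 12 libraries (filled) and without L − N replicate 1 (open). For OGN in H + N the value goes from 2.51 to 4.19, while DCN and LUM have short intervals in each panel.

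DCN and LUM, the most abundant of the genes, varied least. Decorin is a class I member with a single glycosaminoglycan chain that binds collagen, transforming growth factor beta and several receptor kinases. DCN was at 3889, 2973 and 2625 CPM in L − N, 3033, 3339.8 and 3541 in L + N, 2105, 2912 and 2352 in H − N and 3136, 2789 and 2373 in H + N. L − N replicate 1 was the highest library and H − N replicate 1 the lowest, and the groups overlapped in each of the 5 comparisons of 2 groups. The highest library was 1.85 times the lowest. Over both NCG levels, DCN in high against low fiber was −0.31 (SE 0.13, adjusted p = 0.228) in edgeR, with an interval of −0.60 to −0.02. DCN in H + N versus L − N was −0.19 (95% interval −0.60 to 0.22) with 12 libraries and −0.02 without L − N replicate 1, and with the 2 libraries of high VCAN also left out the sign turned, to 0.08. Lumican is a class II member with keratan sulfate chains in the cornea and few in other tissues, where it keeps collagen fibrils regular. LUM was at 1931, 2057 and 1569.7 CPM in L − N, 1655, 2460.4 and 2278 in L + N, 1498, 2278 and 1695 in H − N and 2448, 2174 and 2182 in H + N. H + N lay above all of L − N, while L + N and H − N each overlapped L − N. The log2 fold change of H + N versus L − N was 0.29 (SE 0.20, adjusted p = 0.363) in edgeR, with an interval of −0.14 to 0.72. The intervals for DCN and LUM stayed between −1 and 1 in all 3 comparisons with L − N. KERA, the next gene on the chromosome, did not follow them. It was at 6.24, 4.51 and 12.6 CPM in L − N, 66.1, 125 and 43.2 in L + N, 69.7, 485 and 5.10 in H − N and 27.2, 14.1 and 20.5 in H + N. H − N replicate 2 alone was far above the rest, and H − N replicate 3 was among the lowest. In edgeR KERA was 3.33 (SE 1.14, adjusted p = 0.0869) in L + N versus L − N, 4.59 (SE 1.20, adjusted p = 0.05) in H − N versus L − N and −6.51 (SE 1.59, adjusted p = 0.254) in the interaction of fiber and NCG, none of them called. Without H − N replicate 2 these were 3.33 (SE 0.81, adjusted p = 0.0358), a call, 2.28 (SE 0.83, adjusted p = 0.158) and −4.20 (SE 1.12, adjusted p = 0.265). H − N versus L − N was called without H − N replicate 3, at 5.16 (SE 0.78, adjusted p = 0.0289). In edgeR it was also called with RLE size factors (adjusted p = 0.0495), no low-count filter (0.0491) and a stricter one (0.0491). It was not called with library totals alone (0.0524), a replicate block (0.139) or only the groups compared (0.171). L + N versus L − N was also called without H − N replicate 3 (adjusted p = 0.019) and with only the groups compared (0.0174). With all libraries DESeq2 called KERA in L + N versus L − N, at 3.32 (adjusted p = 0.0231), in H − N versus L − N, at 4.56 (adjusted p = 0.00134), and in the interaction of fiber and NCG, at −6.49 (adjusted p = 0.00941).

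Counts of genes whose groups do not overlap were also set beside all genes. In L + N versus L − N, 1 of 8 genes did not overlap (VCAN), beside 35.3% of all genes tested. In H − N versus L − N, 2 did not (ASPN and OGN), beside 25.4%, and in H + N versus L − N, 3 did not (LUM, ASPN and OGN), beside 28.0%. In H + N versus H − N the count was 0 of 8, beside 13.0%, and in H + N versus L + N it was 1 of 8 (BGN), beside 11.0%. With 8 genes, none of these counts stands out from its background.

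Versican forms large aggregates with hyaluronan and link proteins in loose, expanding matrix, and its cleavage by ADAMTS proteases is a step of matrix remodeling. VCAN was at 260.1, 145 and 234 CPM in L − N, 277, 326 and 270.0 in L + N, 178, 171 and 1502 in H − N and 264, 224 and 2829 in H + N. Apart from H − N replicate 3 and H + N replicate 3, the libraries lay between 145 and 326 CPM. The L + N libraries were all above those of L − N, and the other comparisons overlapped. In edgeR, H + N versus L − N was 2.38 (SE 1.03, adjusted p = 0.16) with 12 libraries and 0.20 (SE 0.78, adjusted p = 0.901) without H + N replicate 3. H − N versus L − N was 1.53 (adjusted p = 0.369) and, without H − N replicate 3, −0.29 (SE 0.87, adjusted p = 0.882). Without both libraries, an alternative chosen after seeing the data, high against low fiber over NCG went from 1.73 (SE 0.71, adjusted p = 0.212) to −0.27 (SE 0.16, adjusted p = 0.41) in edgeR. L + N versus L − N, which rests on neither, was 0.45 (SE 0.98, adjusted p = 0.802), and 0.45 (SE 0.20, adjusted p = 0.154) once they no longer widened the estimate of the spread.

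Some matrix genes, picked after their values were seen, were also highest in those 2 libraries. COL3A1, the main fibrillar collagen of soft tissue, was at 12076, 9653 and 10255 CPM in L − N, 10467, 16123 and 19210.0 in L + N, 16112, 17521 and 30248 in H − N and 20438, 14637 and 25641 in H + N. H − N replicate 3 and H + N replicate 3 were the highest, and L − N the lowest but for L + N replicate 1. CHSY3, an enzyme that lengthens chondroitin sulfate, was at 70.1 and 70.6 CPM in these 2 libraries and at most 39.8 in the others. ADAMTS4, a protease that cleaves versican and aggrecan, was at 25.4 and 41.8 CPM against at most 11.8, and TNFAIP6, which transfers proteins onto hyaluronan, at 13.6 and 11.5 CPM against at most 4.39. None of CHSY3, ADAMTS4, TNFAIP6 and COL3A1 was called in any comparison by edgeR or DESeq2. Other genes of the same lists did not follow VCAN, such as ADAMTS5 at 131 and 106 CPM in these libraries. The 12 stroma markers, led by COL3A1 and all with counts, summed to 23806, 20382 and 20599 CPM in L − N, 19739, 27643 and 35205 in L + N, 28035, 29410.0 and 48513 in H − N and 35262, 25014 and 46307 in H + N. COL3A1 and COL1A1 made up 93.0% of it in H − N replicate 3 and 89.5% in H + N replicate 3. The sum was highest in these 2 libraries, but that of the other 10 markers was not, at 6455, 5987 and 5492 CPM in L − N, 4407, 4884 and 4949.6 in L + N, 4609, 3973 and 3416 in H − N and 4716, 3859 and 4844 in H + N. VIM and THY1 were lowest of all in H − N replicate 3, at 862 and 154 CPM. HAPLN1, the neighbor of VCAN, was at 77.8, 19.2 and 21.8 CPM in L − N, 78.5, 161 and 59.9 in L + N, 105, 119 and 134 in H − N and 60.0, 53.8 and 54.5 in H + N. It was lowest in L − N replicates 2 and 3 and not raised in H + N replicate 3. In H − N versus L − N, HAPLN1 was 1.59 (SE 0.50, adjusted p = 0.0841) in edgeR and was called by DESeq2 at 1.57 (adjusted p = 0.0147), as it was in L + N versus L − N and in the interaction of fiber and NCG.

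H + N was also compared with H − N and with L + N. In edgeR, 0 of 8 genes were called in H + N versus H − N and 0 of 8 in H + N versus L + N, and 0% of all genes were called in either. None of the 8 had an unadjusted p under 0.05 in these comparisons, beside 8.67% and 4.68% of all genes, and DESeq2 called 0 of 7 in both, beside 0.136% and 0.0109%. ASPN differed by 0.21 (95% interval −0.46 to 0.87) on the log2 scale between H + N and H − N, and OGN by 0.13 (95% interval −1.745 to 1.996). For fiber over both NCG levels, edgeR called 0 of 8 genes and 0.0261% of all genes, or 2.13% of all genes without L − N replicate 1. At an unadjusted p under 0.05 there were 4 of 8 (DCN, VCAN, ASPN and PRELP), beside 19.5% of all genes, and DESeq2 called 0 of 7, beside 1.66%. ASPN was 0.55 (SE 0.21, adjusted p = 0.194) and PRELP −0.82 (SE 0.37, adjusted p = 0.25) in edgeR. They were 0.67 (SE 0.21, adjusted p = 0.087) and −0.38 (SE 0.28, adjusted p = 0.44) once L − N replicate 1 was left out, and there FMOD, at 0.74 (SE 0.16, adjusted p = 0.0201), passed the threshold on p and not that on fold. For NCG over both fiber levels, edgeR called 0 of 8 and 1.80% of all genes, with 1 of 8 (ASPN) at an unadjusted p under 0.05, beside 23.6% of all genes. DESeq2 called 0 of 7 there, beside 1.97%. ASPN was 0.54 (SE 0.21, adjusted p = 0.158) and OGN 1.31 (SE 0.62, adjusted p = 0.227) in edgeR. Without L − N replicate 1, OGN was called for NCG, at 2.15 (SE 0.57, adjusted p = 0.0453) in edgeR, the 1 call of 8, beside 1.71% of all genes. The interaction of fiber and NCG asks whether NCG acted differently on the 2 diets. EdgeR called 0 of 8 genes and 0% of all genes, with 0 of 8 at an unadjusted p under 0.05, beside 12.8% of all genes. DESeq2 called 0 of 7, beside 1.02%. For the interaction, leaving out L − N replicate 1 raised the edgeR share to 2.22% of all genes, still with 0 of 8. OGN had an interaction of −2.37 (SE 1.24, adjusted p = 0.455) and BGN of 1.11 (SE 0.59, adjusted p = 0.462) in edgeR. Both moved far without L − N replicate 1, to −4.05 (SE 1.13, adjusted p = 0.086) for OGN and 0.19 (SE 0.23, adjusted p = 0.694) for BGN. OGN was lowest in L − N and at like means in L + N, H − N and H + N, of 54.1 ± 37.1, 50.2 ± 38.0 and 54.7 ± 39.1 CPM (SD, n = 3), beside 9.56 ± 11.4 in L − N.

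The wider machinery of these proteoglycans was read from lists of genes, and the calls in them stand beside the 3.99%, 2.91% and 3.58% of all genes called in L + N, H − N and H + N versus L − N. Of 11 proteases tested that cleave versican or process small proteoglycans, 1 was called higher and 0 lower in L + N versus L − N, 1 and 1 in H − N, and 1 and 1 in H + N. Over the 8 comparisons edgeR made 5 calls in this list and DESeq2 10. The calls it added were ADAMTS8 lower in L + N versus L − N, at −1.98 (adjusted p = 0.012), and for NCG, at −1.36 (adjusted p = 0.021), ADAMTS1 lower in H + N, and TLL2 higher in L + N and H + N. In edgeR the counts higher and lower were 1 and 2, 1 and 2 and 1 and 1 with L − N replicate 1 left out. That fit called 5.85%, 7.19% and 6.09% of all genes there. In the interaction it called 2 of these proteases higher and 0 lower, beside 2.22% of all genes. ADAMTS9, a secreted protease that cleaves versican, was at 101, 87.2 and 75.4 CPM in L − N, 143, 190.1 and 248 in L + N, 224, 224 and 182 in H − N and 270.3, 175 and 433 in H + N. All 9 libraries of the other groups lay above all of L − N. It rose in each comparison with L − N in edgeR, by 1.14 (SE 0.29, adjusted p = 0.0352) in L + N, 1.25 (SE 0.29, adjusted p = 0.0372) in H − N and 1.73 (SE 0.30, adjusted p = 0.0158) in H + N. The call in H + N was lost without L − N replicate 3 or H + N replicate 1. In L + N it was lost without L − N replicate 2 or 3 or L + N replicate 2 or 3. In H − N it was kept in 5 of 12 fits with a library left out, those without L − N replicate 1, L + N replicate 1 or 3, or H + N replicate 2 or 3. ADAMTS5, another versican-cleaving protease, was at 151, 247 and 318 CPM in L − N, 123, 151 and 118 in L + N, 66.7, 92.0 and 131 in H − N and 128, 172 and 106 in H + N. It was highest in L − N replicates 2 and 3, and L − N replicate 1 fell among the other groups. ADAMTS5 in H − N versus L − N fell by 1.31 (SE 0.30, adjusted p = 0.0352) on the log2 scale in edgeR, a call lost without L − N replicate 2 or 3, H − N replicate 1 or 2, or H + N replicate 1. ADAMTS8, of the same family, was at 10.6, 5.14 and 2.89 CPM in L − N, 1.12, 2.33 and 1.31 in L + N, 0.777, 1.73 and 3.72 in H − N and 1.38, 0.869 and 1.47 in H + N. ADAMTS8 in H + N versus L − N fell by 2.32 (SE 0.62, adjusted p = 0.0447) on the log2 scale in edgeR, and the call was kept in 2 of 12 fits, those without H − N replicate 1 or 3. With a library left out, the log2 fold change ran from 0.94 to 1.33 in L + N, 1.16 to 1.37 in H − N and 1.34 to 1.98 in H + N for ADAMTS9, from −1.59 to −1.04 for ADAMTS5 and from −2.66 to −1.69 for ADAMTS8.

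Among 10 growth factors and receptors that the proteoglycans bind, 0 were called higher, and 1, 2 and 1 were called lower in L + N, H − N and H + N versus L − N. Without L − N replicate 1 edgeR called 2, 2 and 3 lower, beside 5.85%, 7.19% and 6.09% of all genes. These were TGFB1 and TLR2 in each, with TLR4 in H + N. In that fit TGFB1 and TLR2 were also called in the interaction, and TLR2 lower for fiber. TLR2, a Toll-like receptor on which biglycan acts, was at 34.3, 64.7 and 78.9 CPM in L − N, 34.6, 29.2 and 19.2 in L + N, 15.5, 21.5 and 19.2 in H − N and 29.7, 23.9 and 17.7 in H + N. L − N replicates 2 and 3 were the highest, and L − N replicate 1 lay just under L + N replicate 1. In edgeR it was −1.10 (SE 0.31, adjusted p = 0.0488) in L + N, −1.66 (SE 0.32, adjusted p = 0.0234) in H − N and −1.32 (SE 0.31, adjusted p = 0.0316) in H + N. In L + N the call was kept only without L − N replicate 1 or H + N replicate 3. In H − N and H + N it was lost without L − N replicate 2 or 3 or without any 1 library of the group itself. TGFB1, the growth factor that decorin, biglycan and asporin bind, was at 98.6, 207 and 184 CPM in L − N, 107, 85.4 and 96.3 in L + N, 82.5, 76.4 and 68.1 in H − N and 95.8, 75.9 and 97.1 in H + N. It was high in L − N replicates 2 and 3, and L − N replicate 1 overlapped L + N only and lay above all of H − N and H + N. In H − N versus L − N it fell by 1.11 (SE 0.23, adjusted p = 0.0279) on the log2 scale in edgeR, a call lost without L − N replicate 2 or 3 or any 1 library of H − N. With a library left out, the log2 fold change ran from −1.37 to −0.84 in L + N, −1.94 to −1.40 in H − N and −1.60 to −1.06 in H + N for TLR2, and from −1.37 to −0.90 for TGFB1. The median of the list on the log2 scale was −0.26, −0.51 and −0.22 in L + N, H − N and H + N versus L − N, beside −0.02, 0.03 and 0.02 over all genes, and −0.12, −0.39 and −0.07 without L − N replicate 1.

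**Figure D5:**
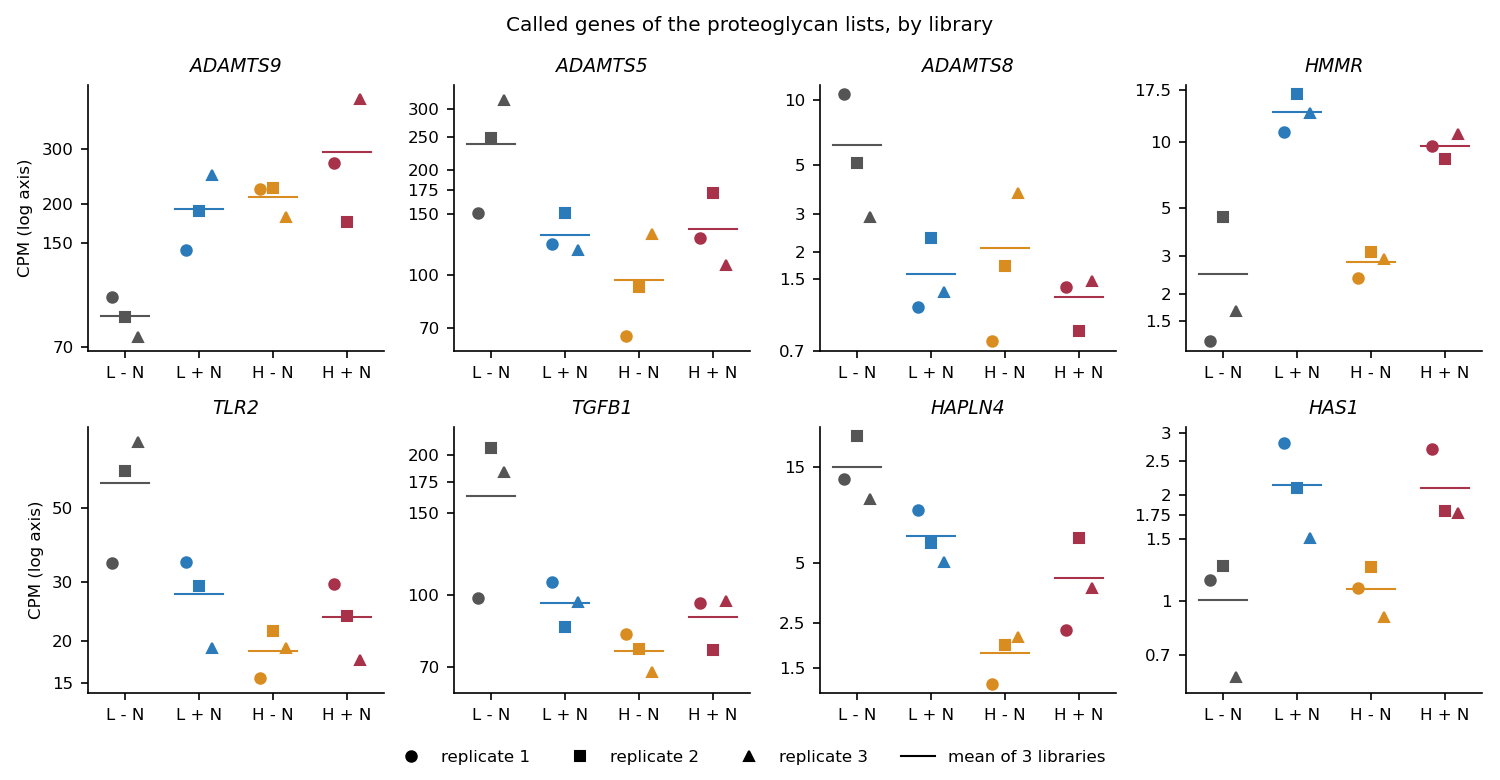
CPM on a log axis for the 8 called genes of the lists, with a point for each library, grouped by diet, and a line at the mean of the 3 libraries. ADAMTS9 lies above 101 CPM in every library outside L − N, and HMMR is at 8.42 CPM or more in every library with NCG.

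Of 12 tested genes for hyalectans, link proteins and hyaluronan, which hold versican in place, 1 was called higher and 0 lower in L + N versus L − N, 0 and 1 in H − N, 1 and 1 in H + N, and 2 and 0 for NCG over both diets (1.80% of all genes), all by edgeR. These are 6 calls, where DESeq2 made 18 among the same genes. Leaving out L − N replicate 1 gave 4 and 0, 3 and 1 and 2 and 1 higher and lower in edgeR in L + N, H − N and H + N versus L − N. That fit called 5.85%, 7.19% and 6.09% of all genes. HAPLN1 was called higher in each, HMMR in L + N and H + N, and HAS3 and HAPLN3 in L + N and H − N. HAPLN4 was called lower in H − N and H + N, and for fiber (2.13% of all genes). HMMR was called higher for NCG (1.71%), and HAS3, HAPLN3 and HAPLN1 lower in the interaction (2.22%). With all libraries DESeq2 called CEMIP, LYVE1 and HAPLN4 lower and HMMR and HAPLN1 higher in L + N versus L − N. ACAN, under the low-count filter of edgeR, was called lower by DESeq2 in all 3 comparisons with L − N, with L − N replicate 1 alone far above the other libraries. HMMR, a hyaluronan receptor that also works on the mitotic spindle, was at 1.21, 4.51 and 1.68 CPM in L − N, 11.2, 16.7 and 13.7 in L + N, 2.38, 3.12 and 2.90 in H − N and 9.62, 8.42 and 11.0 in H + N. Each library with NCG lay above each without it. For NCG over both diets it rose by 2.13 (SE 0.29, adjusted p = 0.00578) on the log2 scale in edgeR, called in 12 of 12 fits with a library left out. It was 2.48 (SE 0.41, adjusted p = 0.00858) in L + N, also called in 12 of 12 fits, and 1.97 (SE 0.41, adjusted p = 0.0233) in H + N, lost without L − N replicate 3 or H + N replicate 1 or 3. In H − N it was 0.18 (SE 0.41, adjusted p = 0.834). The 5 markers of dividing cells, led by MKI67 and all with counts, summed to 59.7, 143 and 45.7 CPM in L − N, 269.9, 299.6 and 384 in L + N, 153, 170.0 and 202 in H − N and 254, 288 and 349.8 in H + N. L − N replicates 1 and 3 were the lowest and the L + N and H + N libraries the highest. All 5 were called higher by edgeR in L + N and H + N versus L − N and for NCG, and TOP2A also in H − N versus L − N, at 1.62 (SE 0.38, adjusted p = 0.0372), where all 5 were higher with a median of 0.97. Their part in HMMR was not tested. Of these calls, TOP2A in L + N, and TOP2A and BUB1 for NCG, were kept in 12 of 12 fits with a library left out, CDK1 in H + N in 2 of 12 and TOP2A in H − N in 5 of 12. HAPLN4, a link protein gene known from brain, was at 13.1, 21.5 and 10.4 CPM in L − N, 9.17, 6.29 and 5.04 in L + N, 1.24, 1.94 and 2.14 in H − N and 2.31, 6.63 and 3.74 in H + N. All 9 libraries of the other groups lay below all of L − N. In L + N it was −1.13 (SE 0.41, adjusted p = 0.103) in edgeR, not called, and −1.14 (adjusted p = 0.0385) in DESeq2, which called it. It was −3.08 (SE 0.45, adjusted p = 0.0162) in H − N, lost without L − N replicate 3 or H − N replicate 1, and −1.82 (SE 0.42, adjusted p = 0.0298) in H + N in edgeR, lost without L − N replicate 2 or 3 or H + N replicate 1 or 3. HAS1, a hyaluronan synthase, was low, at 0.604 to 1.25 CPM in the 6 libraries without NCG and 1.50 to 2.81 CPM in the 6 with it. For NCG it was 1.02 (SE 0.27, adjusted p = 0.0468) in edgeR, and the call was lost without any 1 of the 12 libraries. With a library left out, the log2 fold change ran from 1.64 to 2.74 for HMMR in H + N, from −3.29 to −2.73 in H − N and −2.31 to −1.47 in H + N for HAPLN4, and from 0.89 to 1.12 for HAS1.

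In the remaining lists edgeR called 0 genes in any of the 8 comparisons with all 12 libraries. When L − N replicate 1 was left out it called DSEL and CHST11 of chondroitin sulfate synthesis lower in H − N versus L − N, COL14A1 higher in H − N and H + N, and OMD and ECM2 as given above. Over genes and comparisons, 24 of 200 pairs had an unadjusted p under 0.05 for chondroitin and dermatan sulfate synthesis, 0 of 40 for keratan sulfate synthesis, 10 of 88 for collagens and 14 of 72 for other small leucine-rich proteoglycans, beside 18.6% of such pairs over all genes. DESeq2 called 0, 0, 1 (COL1A1) and 6 (of ECM2, KERA, OMD and TSKU) of these pairs. The 25 tested genes of chondroitin and dermatan sulfate synthesis, which build the chains of decorin, biglycan and versican, had medians of −0.25, −0.17 and −0.05 on the log2 scale for L + N, H − N and H + N versus L − N. For the 5 tested genes of keratan sulfate synthesis, whose product fibromodulin and lumican carry, it was −0.38, 0.05 and −0.24. The 11 tested collagens had medians of 0.22, 0.27 and 0.62, and the 9 tested small leucine-rich proteoglycans outside the 8 genes −0.18, −0.40 and −0.32. All genes tested had medians of −0.02, 0.03 and 0.02, and the 8 genes themselves 0.13, −0.04 and 0.15. The medians without L − N replicate 1 were −0.34, −0.22 and −0.14 for chondroitin and dermatan sulfate synthesis, −0.15, −0.12 and −0.10 for keratan sulfate synthesis, 0.26, 0.24 and 0.49 for collagens, 0.15, −0.25 and 0.08 for the other small leucine-rich proteoglycans, 0.41, 0.64 and 0.76 for the 8 genes and 0.00, 0.04 and 0.04 for all genes. PODN (podocan), of the same family, was at 88.0, 21.9 and 27.5 CPM in L − N, 25.3, 35.7 and 21.3 in L + N, 19.9, 33.1 and 23.1 in H − N and 21.0, 39.4 and 17.8 in H + N, with L − N replicate 1 highest as in PRELP. COL1A1, the collagen that these proteoglycans coat, was 1.13 (SE 0.39, adjusted p = 0.0886) in H + N versus L − N in edgeR and 1.11 (adjusted p = 0.0249) in DESeq2.

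Markers of other cells were read in the same libraries. The 8 macrophage markers, led by C1QC and all with counts, summed to 1342, 3428 and 3557 CPM in L − N, 1613, 1540.4 and 1149.5 in L + N, 947, 1012 and 692 in H − N and 1364, 1378 and 1093 in H + N. L − N replicates 2 and 3 stood far above all others, and these are the libraries where OGN, FMOD and ASPN were low and TLR2, TGFB1 and ADAMTS5 high. Of the 8, 0 were called higher and 1, 6 and 3 lower in L + N, H − N and H + N versus L − N, and the part of macrophages in these levels was not tested. The call in L + N (CD163) was kept in 5 of 12 fits with a library left out. The 6 in H − N were each lost without L − N replicate 2 or 3 or H − N replicate 1 or 3, and 5 of them (all but CSF1R) without H − N replicate 2, with CD68 kept in 1 of 12 fits. The 3 in H + N were each lost without L − N replicate 2 or 3 or H + N replicate 1 or 3, with C1QC kept in 2 of 12. Over the 8 comparisons edgeR made 10 calls among them and DESeq2 20, and without L − N replicate 1 edgeR called 7, 8 and 7 of the 8 lower in the 3 comparisons. The 12 stroma markers held 0, 2 and 1 called lower (VIM and THY1) and 0 called higher. Without L − N replicate 1 they held 1 (THY1), 2 and 2 (THY1 and VIM) called lower by edgeR in the same comparisons. VIM, an intermediate filament of mesenchymal cells, was −1.61 (SE 0.19, adjusted p = 0.0118) in H − N and −1.23 (SE 0.19, adjusted p = 0.0136) in H + N in edgeR, lost in H − N without H − N replicate 1 and in H + N without L − N replicate 3 or H + N replicate 1. THY1 in H − N, at −1.14 (SE 0.29, adjusted p = 0.0476), was kept in 3 of 12 fits with a library left out. The 10 epithelial markers (most abundant CDH1) summed to between 1319 and 3730.3 CPM, with H − N replicate 3 the highest, H + N replicate 3 the lowest and the other 10 at no more than 2319.5 CPM. SPP1 made up much of these differences, at 1305 CPM in H − N replicate 3 and 36.5 CPM in H + N replicate 3. It was at 1258 CPM in L − N replicate 3, and the order of the sums without SPP1 was not taken. The 8 endothelial markers (VWF) summed to between 779 and 1539.7 CPM, and the 8 T and NK cell markers (PTPRC) to between 125 and 389 CPM. Each of these markers had counts, and edgeR called 1 of them, PECAM1 of endothelium, lower in L + N versus L − N and lost without L − N replicate 1 or L + N replicate 2. Without L − N replicate 1 edgeR instead called NKG7 lower in H − N and H + N versus L − N, and PTPRC lower in H − N, among these markers. DESeq2 called PECAM1, CLDN5, SPP1 and NKG7 among them, and at an unadjusted p under 0.05 edgeR had 20 of 80, 18 of 64 and 4 of 64 pairs of gene and comparison in these 3 lists. Of the trophoblast markers in the table, CYP19A1 was at 0 counts in every library, GCM1 at no more than 0.276 CPM and TFAP2C at 1.08 to 9.07 CPM.

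The genes most like each proteoglycan gene over the 12 libraries were ranked by Pearson's r of log2 CPM among all genes tested, as a description, since the highest of 15351 values is high by selection. For OGN they were STYK1 (r = 0.929), THAP9 (r = 0.929) and LRRC17 (r = 0.926). LRRC17, a secreted leucine-rich repeat protein, was at 25.8, 9.78 and 8.19 CPM in L − N, 18.5, 55.8 and 45.6 in L + N, 43.6, 39.6 and 54.6 in H − N and 57.0, 31.1 and 45.7 in H + N, lowest in L − N replicates 2 and 3 as OGN was. For ASPN they were WDR20 (r = 0.916), CDCP2 (r = 0.908) and LRP1B (r = 0.907). For PRELP they were PODN (r = 0.936), THBS2 (r = 0.928) and COL8A1 (r = 0.925), of which PODN is of the same family and THBS2 and COL8A1 encode matrix proteins. COL8A1, a collagen of vessel walls, was at 223, 21.9 and 43.1 CPM in L − N, 29.0, 28.9 and 18.1 in L + N, 13.8, 24.5 and 32.2 in H − N and 19.8, 28.5 and 9.81 in H + N, with L − N replicate 1 alone far above the rest. For BGN they were CRIP2 (r = 0.897), MYLK (r = 0.888) and ACTN4 (r = 0.886), among them the myosin light chain kinase MYLK. MYLK was at 663, 192 and 264 CPM in L − N, 205, 216 and 169 in L + N, 190.1, 270.0 and 263 in H − N and 298, 234 and 265 in H + N, again highest in L − N replicate 1. For FMOD they were PKDCC (r = 0.907), MID1 (r = 0.892) and PAPPA2 (r = 0.887). For VCAN they were LMAN1 (r = 0.942), DAAM1 (r = 0.940) and COL26A1 (r = 0.931). LMAN1, a carrier of newly made glycoproteins out of the endoplasmic reticulum, was at 107, 120.1 and 135 CPM in L − N, 126, 153 and 127 in L + N, 114, 129 and 210.2 in H − N and 136, 136 and 267 in H + N, and its 2 highest libraries were those of VCAN. For DCN they were HMCN1 (r = 0.933), NAPEPLD (r = 0.883) and NHSL2 (r = 0.881). HMCN1 (hemicentin), a matrix protein, was at 24.1, 13.4 and 8.66 CPM in L − N, 16.7, 25.2 and 19.3 in L + N, 3.16, 9.92 and 3.79 in H − N and 10.7, 13.8 and 5.95 in H + N, lowest in H − N replicates 1 and 3 as DCN was. For LUM they were MFSD9 (r = 0.859), BOD1L1 (r = 0.838) and DTL (r = 0.832), the weakest likeness among the 8 genes.

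Among the 7 small leucine-rich genes, log2 CPM was compared over the 12 libraries in 21 pairs, with p by 100000 permutations (two-sided) and Benjamini-Hochberg adjustment over the pairs. The permutations ignored the diet groups, so differences between group means shared by 2 genes enter these p. VCAN was left out, since 2 of its libraries stand apart from the other 10. BGN and FMOD had Pearson's r = 0.819 (permutation p = 0.00073, adjusted 0.0153) and Spearman's rho = 0.643 (permutation p = 0.0277, adjusted 0.194). Without L − N replicate 1 and H + N replicate 3, the farthest from the median of BGN, r was 0.670 (permutation p = 0.0328), and within groups, as deviations from the group means, 0.912. ASPN and OGN, neighbors on chromosome 3, had r = 0.795 (permutation p = 0.00214, adjusted 0.0225) and rho = 0.671 (permutation p = 0.0204, adjusted 0.194). Without L − N replicates 2 and 3, r was 0.436 (permutation p = 0.205), so that this relation rests on those libraries, and within groups it was 0.520. LUM and OGN had r = 0.603 (permutation p = 0.0377, adjusted 0.264) and rho = 0.811 (permutation p = 0.00227, adjusted 0.0477). Without L − N replicate 3 and H − N replicate 1, the farthest from the median of LUM, r was 0.554 (permutation p = 0.0972), and within groups 0.725. L − N replicate 2, next to the lowest library of OGN, stayed in. The other 18 pairs did not pass after adjustment by either measure. DCN and LUM, neighbors on chromosome 5, had r = 0.531 (permutation p = 0.0779, adjusted 0.273) and rho = 0.545 (permutation p = 0.0708, adjusted 0.372). Their r was 0.513 without L − N replicate 1 and H − N replicate 1, the farthest from the median of DCN, and 0.707 within groups. Within groups r was also high for DCN and OGN (0.846) and for FMOD and PRELP (0.873), beside 0.188 and 0.507 over all libraries. Dropping the libraries farthest from the median of the gene named first changed r over the rest to 0.304 for DCN and OGN. There L − N replicate 1 and H − N replicate 1 were dropped, and L − N replicates 2 and 3, the lowest of OGN, stayed in. For FMOD and PRELP it fell to 0.0127 (L − N replicates 1 and 2 dropped). It fell to −0.0167 when only L − N replicate 1 was dropped, so that their 0.507 rests on that library. No p was computed within groups, and r within groups was not taken with libraries dropped.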

How the data were processed

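Poly(A) RNA of endometrium from 12 sows was sequenced by the authors. Per the submitters' processing notes, fastp 0.22.0, HISAT2 2.1.0 and HTSeq 0.9.1 were used with the build Sscrofa11.1. The authors deposited a count of reads per gene, without normalization, and an FPKM value, which equals count over length and library total within 1.91e-05%. The deposited gene length (other) was taken from the same table. Libraries were strand-specific per the paper, and the strand setting of the counting is not given in the sources used here. Libraries were assigned to groups by the codes in their titles. Counts were analysed with edgeR 4.0.16 (R 4.3.3) with TMM scaling, filterByExpr, which kept 15351 genes, and a quasi-likelihood fit with 1 mean per group and 8 residual degrees of freedom. Log2 CPM used a prior count of 2. The 8 comparisons and the call rule were the same for all genes, and intervals are 95%. The test was tried on 5 sets of simulated counts, each with 200 genes changed by 2 on the log2 scale, up or down, in H + N. In H + N versus L − N it called 79.8% of these, with a mean of 5.6 false calls per set. Libraries that stand apart and log2 fold changes near 1 were not simulated. Alternatives were RLE size factors, library totals alone, DESeq2 1.42.0, no low-count filter, a stricter one (1 CPM in 6 libraries), a replicate block, only the groups compared, and each library left out. Leaving out H − N replicate 3 and H + N replicate 3, alone or with L − N replicate 1, was added after seeing the data. Replicates differed by far more than counting error, with a biological coefficient of variation of 0.269. Members and lists were chosen with earlier results of these data known. Named genes were the 8 members, up to 4 called genes per list and comparison, and the 3 genes most correlated with each member, passing over genes with only a locus number. KERA, OMD, ECM2, HAPLN1, HAPLN3, HAS3, PODN, COL1A1, COL3A1, CHSY3, ADAMTS4, TNFAIP6, ADAMTS1, TLL2, TSKU, CEMIP, LYVE1, ACAN, DSEL, CHST11, COL14A1 and the single marker genes were named after their values were seen. HAS2, CHPF2, CHST6, B4GALT4, COL6A1, PAG2 and PAG3 were not analysed here, and PAG1, in this table an adaptor protein of lymphocytes, was not used as a trophoblast marker.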

Additional observations from a re-analysis of the deposited data

How the results depend on the processing

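In edgeR, 0 of the 8 genes were called in each of the 8 comparisons, and the count stayed at 0 under RLE size factors, without a low-count filter and without both libraries with high VCAN. It was also 0 with only the groups compared, which was run in the 5 comparisons of 2 groups. That fit called 537, 3 and 87 of all genes in L + N, H − N and H + N versus L − N. The main fit called 613, 446 and 549 there, and the fit without both libraries with high VCAN 731, 163 and 281. In H + N versus L − N the count of the 8 genes was 1 with library totals alone (ASPN), 1 with the stricter filter (ASPN) and 2 with DESeq2. The same settings called 611, 554 and 1000 of all genes. Without both libraries with high VCAN and L − N replicate 1, chosen after seeing the data, edgeR called more. Of the 8 genes it called 2, 2 and 3 in L + N, H − N and H + N versus L − N. Of all 15508 genes tested it called 1196, 1216 and 1067, and the cause was not tested. With each library left out, the count of the 8 genes ran from 0 to 1, 0 to 2 and 0 to 3 in L + N, H − N and H + N versus L − N. It ran from 0 to 1 for NCG and was 0 in each other comparison. The count over all genes ran from 143 to 911, 0 to 1120 and 1 to 948 in the same comparisons with L − N. For NCG it ran from 157 to 340, for fiber from 0 to 331 and for the interaction from 0 to 346. With the replicate number as a block the count of the 8 genes was 0 in each comparison. That fit called 535, 254 and 397 of all genes in L + N, H − N and H + N versus L − N. Over all genes, deviations from the group means in libraries of the same number had r from −0.322 to 0.283 (18 pairs, median −0.0414). Libraries of unlike number had r from −0.323 to 0.284 (36 pairs, median 0.0298). The highest r of the same number was that of H − N replicate 3 with H + N replicate 3. These values cannot show how the sows were numbered or handled. Of 1320 values of the 8 genes under the alternatives, 19 were called and 81 changed sign, and 34 of 64 pairs of gene and comparison never changed sign. Of the calls in the lists and markers, 663 values kept the call and 317 lost it. Library totals alone moved the median of all genes in L + N versus L − N from −0.02 to 0.10, and in the interaction to −0.13. What depth limits was not tested.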
